A study of Mus musculus with 6 samples.

Results

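The cytosolic ribosomal protein genes were examined in livers of nude mice that had received small extracellular vesicles (sEVs) of a colorectal cancer line. They were found by name: array probes outside the controls whose gene name starts with Rpl, Rps or Rplp followed by a digit, without the S6 kinase genes (10 names beginning Rps6k) and without 5 pseudogene names containing -ps. This gave 86 gene names of 37074 on the array, 53 for the large and 33 for the small ribosomal subunit, with 184 probes on 769 spots. The names follow the standard nomenclature, and 86 of 86 were found in RefSeq. Within them, 75 tested names are canonical subunit genes, 6 tested names are paralogues, and Rps19bp1 is a binding protein of Rps19 that only shares its name.

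Each sEV liver came from a nude mouse, an athymic strain without mature T cells, given 10 tail vein injections of 20 µg of vesicles from SW620 cells, an established line of human colorectal cancer, within 21 days. Control mice of the same strain received sterile PBS at the same times. Each group had 5 mice, of which 3 livers were arrayed, and the sEV mice had been picked at random. RNA of 1 liver was labelled with Cy3 and hybridised to 1 Agilent array. The labels give no age or sex of the animals. The question was posed by the study in terms of an inflammatory niche for metastasis, and ribosomal proteins are not mentioned in it.

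Ribosomal proteins coat the ribosomal RNAs of the large and small subunits, and nearly every one is needed in the same number of copies per ribosome. Their messages begin with a 5′ terminal oligopyrimidine (TOP) tract, a C followed by an unbroken run of C and T, through which mTOR signalling controls their translation. Hepatocytes, which secrete most plasma proteins, hold large amounts of these messages. Because TOP control acts on translation, an array of total RNA measures the amount of message and not its use by ribosomes.

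The tract and its surroundings are shown for 6 canonical members and for the 3 paralogues with the lowest log2 fold changes. Of the 6, 4 were picked for a long run, and 2 (Rps19 and Rpl22) have a longest run of 5 bases in the printed line. This start is what the family is known to share, and its part in the values below was not tested. Only the first listed start of each gene is printed. Rps19 has 3 annotated starts, and through another of them it counts below among members with a run of at least 7 bases. Of the 86 symbols, 65 had promoter sequence in RefSeq (build GRCm38.p6), with 77 annotated starts among them. Each line runs 5′ to 3′ on the gene's strand from 30 bases before the annotated start to 15 bases into the transcript, and capitals mark the longest unbroken run of C and T (the later one where runs tie, as in Rps27l).
Rpl35 (chr2:39005117-39005161, minus strand): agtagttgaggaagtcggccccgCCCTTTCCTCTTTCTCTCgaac
Rps6 (chr4:86857353-86857397, minus strand): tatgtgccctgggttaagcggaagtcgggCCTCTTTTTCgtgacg
Rps10 (chr17:27635230-27635274, minus strand): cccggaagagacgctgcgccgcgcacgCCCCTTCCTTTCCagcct
Rpl15 (chr14:18270972-18271016, minus strand): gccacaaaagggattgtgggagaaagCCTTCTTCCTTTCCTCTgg
Rps19 (chr7:24884562-24884606, plus strand): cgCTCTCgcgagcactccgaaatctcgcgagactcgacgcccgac
Rpl22 (chr4:152325696-152325740, plus strand): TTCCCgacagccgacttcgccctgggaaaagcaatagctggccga
Rpl22l1 (chr3:28805478-28805522, plus strand): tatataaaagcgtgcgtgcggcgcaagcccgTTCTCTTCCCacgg
Rps27l (chr9:66946056-66946100, plus strand): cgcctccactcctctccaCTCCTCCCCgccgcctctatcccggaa
Rpl36al (chr12:69184053-69184097, minus strand): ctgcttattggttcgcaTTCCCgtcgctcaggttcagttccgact

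A run of at least 7 C or T on the gene's strand, within 10 bases before to 20 bases after the annotated start, was present in 34 of the 77 member promoters (44.2%) and in 17.9% of all 32851 promoters. The letters CGGAAG, a core that ETS family factors are known to bind, stood on either strand of the 300-base promoter in 46 of 77 (59.7%) against 16.9% of all promoters. The median log2 fold change (sEV minus control) was -0.12 over 32 tested members with the run and -0.086 over 29 without it, and their ranges overlapped. A match is a description of letters, and annotated starts can lie some bases from the start that is used.

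All levels below are log2 of the processed signal minus the 75th percentile of that array, so that 0 marks that percentile. A value with ± is a log2 fold change, sEV minus control, and its standard error. Levels of different genes come from different probes and are not set against each other. Of the 86 names, 82 were well above background, on all 6 arrays, and were tested, 49 of the large and 33 of the small subunit. The other 4 were not well above background on any array: Rpl37 and the paralogues Rpl3l, Rpl10l and Rpl39l. Rpl37rt, a retrotransposed copy of Rpl37, was well above background (7.87, 7.96 and 7.88 in sEV livers, against 7.99, 8.15 and 8.0 in control livers). The Rpl37 probe itself gives only a bound, and whether the Rpl37rt probe also meets Rpl37 message was not tested. Raw processed signals of canonical members ran between 14500 and 177000 with 0 saturated member spots. Over the 65 member probes printed in 10 copies, the median SD of the copies on 1 array was 0.025 on the log2 scale.

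The messages of the ribosome differed little in amount between the groups under the main scaling. Of 82 tested members, 1 fell in sEV livers and 0 rose at an adjusted p under 0.05 (limma with Benjamini-Hochberg adjustment over all 19446 genes). Among all genes 16.9% passed in either direction and 8.11% were lower, and 52.1% of the genes that passed were higher. That split was 40.6% when arrays were scaled to their medians, 14.5% with no scaling and 74.4% when they were scaled to the members' median. At an unadjusted p under 0.05 in the same fit, 5 members were lower and 0 higher. Of all 19446 genes, 2945 were lower and 3591 higher at that cut. For 75 of 75 canonical members the 95% confidence interval of the difference lay within 1.5-fold in both directions, under this scaling, as it did for 55.6% of all genes. The member that fell was Rpl22l1, a paralogue of Rpl22 that can take its place in the ribosome. Quantile normalization and the authors' deposited value table each called 22 members as lower, beside 9.48% and 9.5% of all genes. In whole liver, fewer cells of a type and less RNA per cell cannot be told apart.

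Small differences ran mostly one way. The log2 fold change was negative for 73 of 82 members, with a median of -0.104 over the large and -0.0768 over the small subunit, beside 0.022 over all genes. In 24 members every sEV array lay below every control array, which held for 18.6% of all genes, and in 0 members did every sEV array lie above, which held for 22.2% of all genes. Members share arrays and are not independent. Their direction is relative to the scaling of the arrays and rests, in part, on 1 control liver, as described next.

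**Figure D1:**
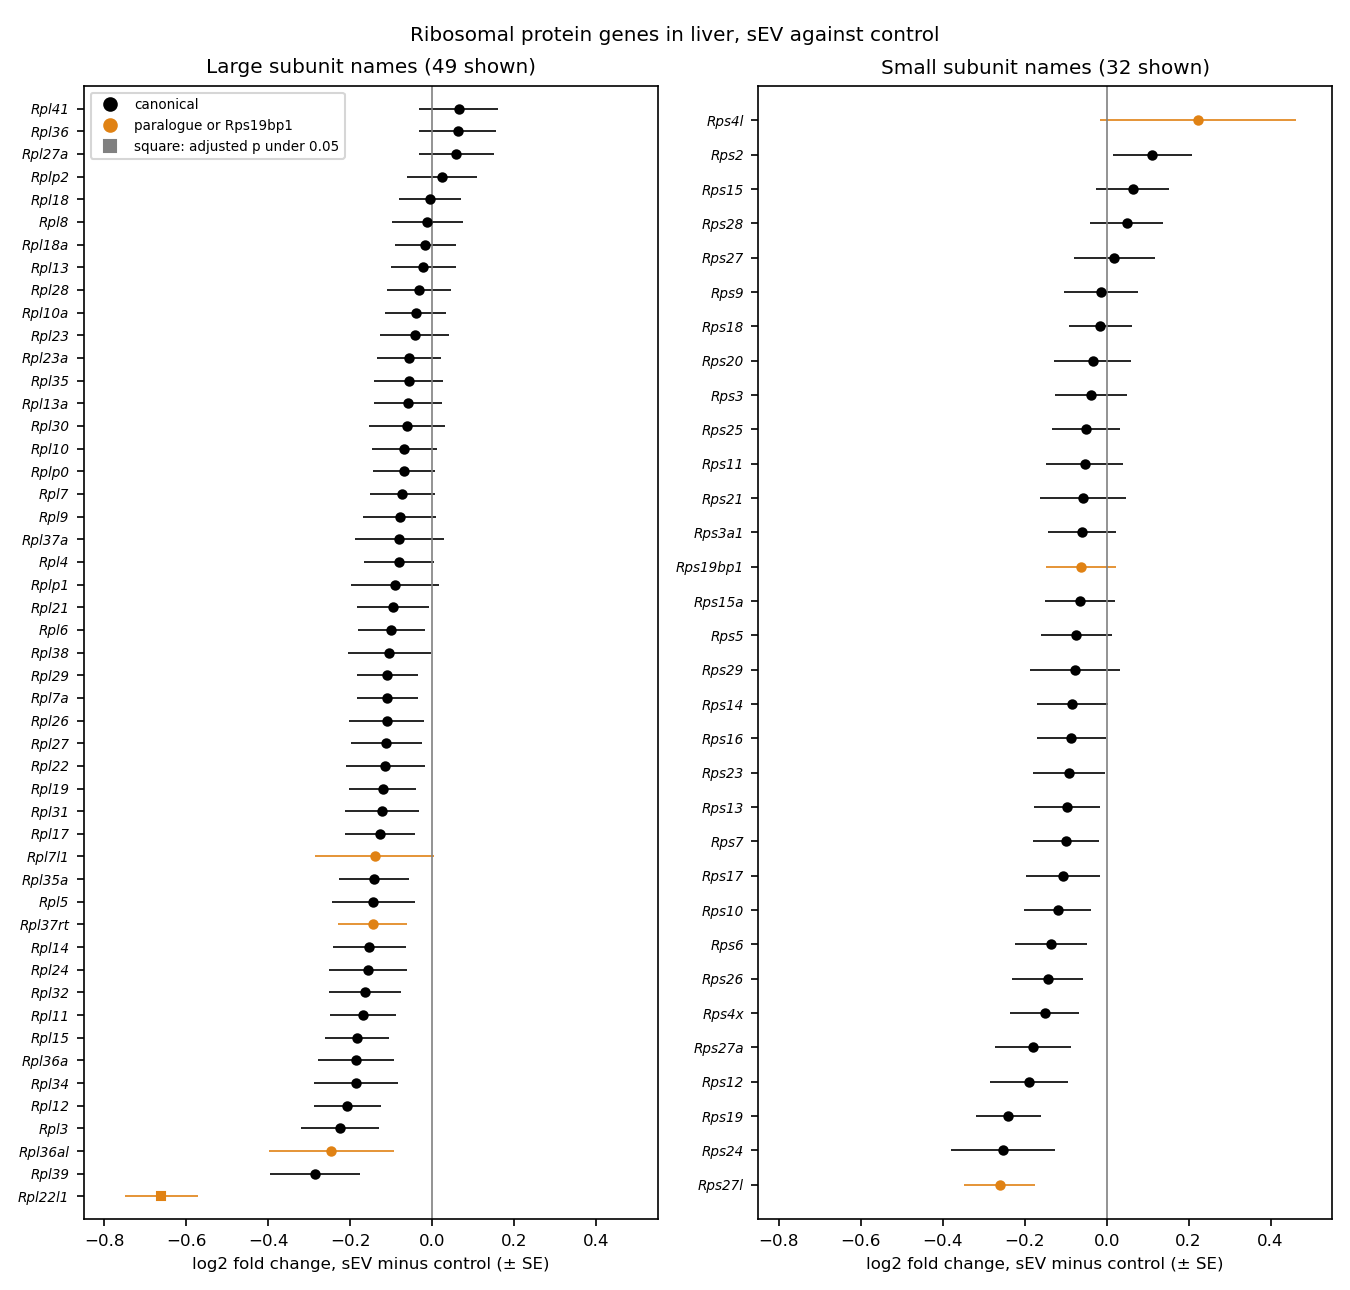
Log2 fold change (sEV minus control, ± SE, 3 livers per group) of the tested ribosomal protein genes, large subunit names on the left and small subunit names on the right, ordered by value. Rpl22l1 at -0.66 stands apart, while the canonical genes lie between -0.29 and 0.11.

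The array medians of the members were compared after subtracting each gene's mean over the 6 arrays. They were -0.0545, -0.0264 and -0.0503 in sEV livers, against -0.035, 0.154 and 0.024 in control livers. The groups overlapped, since control 1 lay among the sEV livers, and control 2 stood above all other arrays. Over the mitochondrial ribosomal protein genes, control 2 was also the highest, with medians of -0.0657, 0.0022 and -0.0267 in sEV livers, against -0.0478, 0.119 and 0.0497 in control livers. Without control 2 the member medians were -0.0495 for the large and -0.0286 for the small subunit, and 59 of 82 members were negative. Then 24 members lay wholly below and 6 wholly above the other controls, beside 22.1% and 28.2% of all genes. Rpl22l1 remained the 1 called member without control 2.

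**Figure D2:**
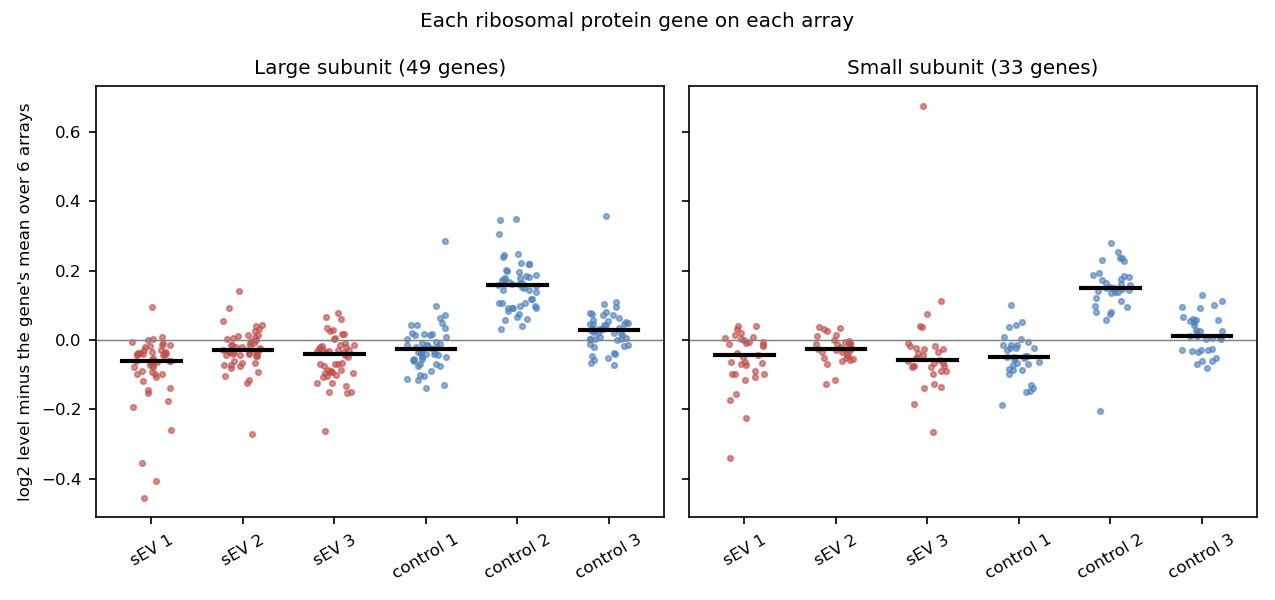
Log2 level of each tested member minus that gene's mean over 6 arrays (vertical axis) for each liver, with sEV livers in red on the left and control livers in blue on the right. Black bars are medians. The cloud of control 2 sits near 0.15 in both subunits, and the sEV clouds and control 1 lie just below 0.

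Large and small subunit genes varied together across the 6 arrays. The median of the large subunit minus that of the small subunit was -0.0159, -0.0028 and 0.0171 in sEV livers, against 0.0239, 0.0076 and 0.0154 in control livers, so that the groups overlapped. The SD of that quantity between arrays of a group was 0.0131, and the SD of the large subunit median alone was 0.068. Deviations from the group means correlated between pairs of members with a median r of 0.732 within the large subunit, 0.8 within the small and 0.771 between them, over 6 arrays that all members share. After each array was centred on the members' median, the median r over all pairs was -0.005. That centring takes out what the members share, so a value near 0 is largely built in. The same r was not computed over other genes. The difference of the subunits' medians of log2 fold change was -0.0276, and no test was made of it because the members are not replicates.

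Rpl22l1 encodes an RNA-binding protein of the large subunit, and in mice loss of Rpl22 is known to raise it. Its level was 4.61, 4.79 and 4.80 in sEV livers, against 5.35, 5.41 and 5.42 in control livers. The sEV livers all lay below the control livers, 1.58-fold lower on average (-0.66 ± 0.09, adjusted p = 0.00769). Rpl22 itself was at 5.44, 5.41 and 5.33 in sEV livers, against 5.40, 5.65 and 5.47 in control livers, with overlapping groups (-0.11 ± 0.10, adjusted p = 0.444). Slide row 2 holds no control array, so a fit with slide row as a covariate sets sEV 1 alone against the 3 controls. For Rpl22l1 it gave -0.79. Slide row 1 alone makes the same comparison of 1 sEV array with 3 controls and gave the same -0.79. Whether slide row plays a part in the values of sEV 2 and 3 was not tested. The 1 Rpl22l1 probe shares 54 of its 60 bases in a row with the probe of Gm15421, which RefSeq lists as a transcribed pseudogene, so that the array cannot tell their messages apart. Gm15421 stood at 4.29, 4.47 and 4.51 in sEV livers, against 5.05, 5.12 and 5.09 in control livers (-0.66 ± 0.09, adjusted p = 0.00814). The first 30 bases of both probes, with the shared run in capitals and coordinates in build mm9, are as follows.
Rpl22l1 probe (chr3:28706237-28706296, plus strand): cagagtCTGAGGACTAATTGGCCTCTGCTT
Gm15421 probe (chr5:22034094-22034153, minus strand): gagcCTGAGGACTAATTGGCCTCTGCTTGT

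Sharing of this kind was common. Of the 173 member probes used, 48 from 37 members share at least 25 bases in a row with a probe of another gene name, and 25 of these stood for their gene in the fit. The design places 7 probes of 4 members (Rpl13, Rpl36, Rps27 and Rps29) on another chromosome than the gene. Values of such members may include message of near-identical copies.

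The other paralogues differed less than Rpl22l1, and none of them passed the threshold in the main setting. Rps27l passed as lower with normexp, quantile normalization, cyclic loess, no scaling and in the deposited table (-0.48 to -0.30), and Rpl37rt with quantile normalization, no scaling and in the deposited table (-0.40 to -0.36). Rps27l, a p53-responsive paralogue of Rps27, was at 6.46, 6.56 and 6.43 in sEV livers, against 6.67, 6.84 and 6.73 in control livers, and the sEV livers were all below (-0.26 ± 0.09, adjusted p = 0.0905). Its partner Rps27, a zinc finger protein of the small subunit, was at 7.24, 7.26 and 7.21 in sEV livers, against 7.08, 7.37 and 7.20 in control livers (0.02 ± 0.10, adjusted p = 0.912). The Rps27l groups did not overlap and the Rps27 groups did. The design places both Rps27 probes on chromosome 9, while the gene lies on chromosome 3, so the Rps27 values may include message of other copies. Rpl36al, a near copy of Rpl36a, was at 5.32, 5.74 and 5.77 in sEV livers, against 5.78, 6.04 and 5.75 in control livers (-0.25 ± 0.15, adjusted p = 0.305). Rpl37rt, named above, differed by -0.15 ± 0.09 with an adjusted p of 0.282. Its sEV livers all lay below the controls. Rpl7l1, a pre-ribosome factor related to Rpl7, was at 0.48, 0.97 and 0.84 in sEV livers, against 0.79, 0.99 and 0.93 in control livers (-0.14 ± 0.14, adjusted p = 0.537). Rps4l, a copy of Rps4x, was at 1.85, 1.96 and 2.75 in sEV livers, against 2.02, 1.87 and 1.99 in control livers (0.22 ± 0.24, adjusted p = 0.553). The high Rps4l value came from 1 sEV liver, and the others lay among the controls. Rps19bp1, which binds Rps19 and the deacetylase Sirt1, was at 3.25, 3.25 and 3.18 in sEV livers, against 3.17, 3.33 and 3.35 in control livers (-0.06 ± 0.09, adjusted p = 0.651).

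In the large subunit, the canonical members with the most negative differences included proteins of the exit tunnel, the catalytic centre and the stalk base. Rpl39, a small protein that lines the tunnel through which the new chain leaves, was at 6.48, 6.57 and 6.54 in sEV livers, against 6.72, 7.03 and 6.71 in control livers (-0.29 ± 0.11, adjusted p = 0.127). Rpl3, which reaches towards the peptidyl transferase centre, was at 6.10, 6.33 and 6.31 in sEV livers, against 6.45, 6.54 and 6.42 in control livers (-0.22 ± 0.10, adjusted p = 0.157). Rpl12, at the base of the stalk, was at 6.55, 6.61 and 6.60 in sEV livers, against 6.76, 6.89 and 6.72 in control livers (-0.21 ± 0.08, adjusted p = 0.136). In each of these 3 genes every sEV liver lay below every control liver, with none past the threshold. At the other end of the order stood Rpl41, the smallest protein of the subunit, at 8.17, 8.34 and 8.32 in sEV livers, against 8.13, 8.34 and 8.17 in control livers (0.06 ± 0.10, adjusted p = 0.673). Rpl36 was at 7.22, 7.16 and 7.09 in sEV livers, against 6.99, 7.22 and 7.08 in control livers (0.06 ± 0.09, adjusted p = 0.678). Rpl27a was at 6.64, 6.70 and 6.71 in sEV livers, against 6.52, 6.76 and 6.59 in control livers (0.06 ± 0.09, adjusted p = 0.687). The groups of these 3 genes overlapped, as did those of Rpl18 at 5.98, 6.0 and 5.97 in sEV livers, against 5.93, 6.04 and 5.99 in control livers (-0.01 ± 0.08, adjusted p = 0.968).

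The stalk recruits the elongation factors and is built of Rplp0, Rplp1 and Rplp2. Rplp0, its base, was at 6.63, 6.59 and 6.67 in sEV livers, against 6.66, 6.70 and 6.74 in control livers (-0.07 ± 0.08, adjusted p = 0.56). Rplp1 was at 7.85, 7.95 and 7.90 in sEV livers, against 7.83, 8.17 and 7.97 in control livers (-0.09 ± 0.11, adjusted p = 0.59). Rplp2 was at 7.55, 7.61 and 7.66 in sEV livers, against 7.49, 7.68 and 7.58 in control livers (0.02 ± 0.09, adjusted p = 0.871). In all 3 stalk genes the groups overlapped.

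Rpl5 and Rpl11 bind 5S ribosomal RNA and can bind Mdm2, the ubiquitin ligase of p53, when assembly is disturbed. Rpl5 was at 5.59, 5.68 and 5.52 in sEV livers, against 5.62, 5.89 and 5.71 in control livers (-0.14 ± 0.10, adjusted p = 0.366). Rpl11 was at 7.82, 7.85 and 7.83 in sEV livers, against 7.94, 8.09 and 7.98 in control livers (-0.17 ± 0.08, adjusted p = 0.193). The Rpl5 groups overlapped and the Rpl11 groups did not. Rpl10, a late-joining protein near the peptidyl transferase centre, was at 8.14, 8.20 and 8.26 in sEV livers, against 8.21, 8.33 and 8.27 in control livers (-0.07 ± 0.08, adjusted p = 0.587). Rpl13a, which can leave the ribosome to repress inflammatory messages in macrophages, was at 6.03, 5.95 and 6.01 in sEV livers, against 5.95, 6.12 and 6.10 in control livers (-0.06 ± 0.08, adjusted p = 0.659). Neither Rpl10 nor Rpl13a had groups that stood apart.

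In the small subunit, the canonical members with negative differences included Rps24, Rps19 and Rps12. Rps24, one of the genes mutated in Diamond-Blackfan anaemia in humans, was at 7.04, 7.38 and 7.35 in sEV livers, against 7.39, 7.66 and 7.47 in control livers (-0.25 ± 0.13, adjusted p = 0.219). Rps19, the gene most often mutated in that anaemia, was at 6.86, 6.84 and 6.84 in sEV livers, against 7.0, 7.16 and 7.09 in control livers (-0.24 ± 0.08, adjusted p = 0.0883). Both had all sEV livers below all control livers. Rps12, of the small subunit's beak, was at 7.06, 7.18 and 7.18 in sEV livers, against 7.28, 7.47 and 7.24 in control livers (-0.19 ± 0.10, adjusted p = 0.218). The Rps12 groups did not overlap either. On the positive side Rps2, at the entry of the messenger channel, was at 6.54, 6.51 and 6.61 in sEV livers, against 6.31, 6.58 and 6.43 in control livers (0.11 ± 0.10, adjusted p = 0.458). Rps15, near the decoding site, was at 6.49, 6.47 and 6.54 in sEV livers, against 6.34, 6.56 and 6.41 in control livers (0.06 ± 0.09, adjusted p = 0.659). Rps28, near the messenger exit, was at 6.71, 6.75 and 6.75 in sEV livers, against 6.57, 6.81 and 6.68 in control livers (0.05 ± 0.09, adjusted p = 0.734). The groups of Rps2, Rps15 and Rps28 overlapped.

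Rps6, the small subunit protein that S6 kinases phosphorylate below mTOR, was at 6.39, 6.33 and 6.25 in sEV livers, against 6.37, 6.55 and 6.46 in control livers (-0.14 ± 0.09, adjusted p = 0.329). Rps3, at the messenger entry, was at 6.07, 6.05 and 6.06 in sEV livers, against 5.99, 6.22 and 6.08 in control livers (-0.04 ± 0.09, adjusted p = 0.784). Rps14, whose loss is linked to the 5q- syndrome in humans, was at 6.93, 6.96 and 6.89 in sEV livers, against 6.91, 7.12 and 6.99 in control livers (-0.08 ± 0.09, adjusted p = 0.536). These 3 genes had overlapping groups. Rps27a, made as a fusion with ubiquitin, was at 7.35, 7.39 and 7.30 in sEV livers, against 7.42, 7.66 and 7.49 in control livers, and its sEV livers were all below the control livers (-0.18 ± 0.09, adjusted p = 0.233).

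Where a gene had several probes, they were fitted one by one across 28760 probes, of which 14.1% passed. Of the 173 member probes, 149 had a negative log2 fold change, 4 passed as lower and 1 as higher. Among 58 members with more than 1 probe, all probes had 1 sign in 50, and the median gap between the highest and the lowest probe was 0.0581. Rps24, Rps15a and Rps19 had a probe that passed as lower beside others that did not. They were chosen for display after their values were seen, since the rule for named genes asks for probes of both signs.

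Rps24 has several annotated transcript variants. The probe whose design record is transcript variant 1 (NM_011297) was at 2.69, 2.88 and 2.97 in sEV livers, against 3.53, 3.44 and 3.42 in control livers (-0.61 ± 0.10, adjusted p = 0.0163). That recorded under variant 2 (NM_207634) was at 4.64, 4.63 and 4.62 in sEV livers, against 4.63, 4.59 and 4.71 in control livers (-0.01 ± 0.08, adjusted p = 0.921). That under variant 3 (NM_207635), the brightest and so the one that stood for the gene, differed by -0.25 ± 0.13, and that under a predicted variant (XM_011244997) by -0.16 ± 0.20. The groups of the first probe lay apart and those of the second did not, and the difference between the probes was not tested. The records name the transcript a probe was drawn from, and whether a probe meets that variant alone was not tested. In build mm9 the first 2 of these 60-base probes span 2321 and 1477 bases and so cross an intron, the second lying wholly before the first. The first 30 bases of 3 probes are as follows.
Probe recorded under variant 1 (chr14:25312695-25315015, plus strand): aatgttggtgctggcaaaaagtgagtggag
Probe recorded under variant 2 (chr14:25311190-25312666, plus strand): tggccattatgagaagaaaaagacctcccg
Probe recorded under variant 3 (chr14:25315021-25315080, plus strand): ttgatgttttgctgtgatgtgcagatttct

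Rps15a, a protein of the small subunit's body, had 3 probes in use. The probe on an Ensembl transcript (ENSMUST00000134270) was at 5.43, 5.48 and 5.19 in sEV livers, against 5.97, 6.16 and 6.0 in control livers (-0.68 ± 0.11, adjusted p = 0.0157). A probe on NM_170669 that overlaps it by 27 bases was at 4.94, 5.08 and 4.93 in sEV livers, against 5.19, 5.39 and 5.30 in control livers (-0.31 ± 0.09, adjusted p = 0.0789). The brightest probe, also on NM_170669, differed by -0.06 ± 0.09. The groups of the first 2 probes lay apart and those of the brightest overlapped. The shared 27 bases are in capitals in the first 30 bases of the Ensembl probe and the last 30 of the other.
Ensembl probe (chr7:125253420-125253479, minus strand): GCAGAACAACCTGCTCCCTTCACGTCAgtt
Overlapping probe (chr7:125253453-125253512, minus strand): atgGCAGAACAACCTGCTCCCTTCACGTCA

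For Rps19, a probe on a cDNA clone (AK012052) was at 5.23, 5.32 and 5.25 in sEV livers, against 5.60, 5.78 and 5.68 in control livers (-0.42 ± 0.09, adjusted p = 0.0294), and both NM_023133 probes were lower without passing (-0.26 ± 0.09 and -0.24 ± 0.08). Rps9, of the small subunit's body, was the gene with probes of both signs and 1 past the threshold. Its dim probe on ENSMUST00000146303, well above background on 2 sEV arrays and 1 control array, was at -3.76, -3.83 and -4.19 in sEV livers, against -4.34, -4.79 and -4.86 in control livers (0.74 ± 0.18, adjusted p = 0.0436). These levels are near the background, so the size of this difference is uncertain. Its brightest probe was at 6.86, 6.89 and 6.82 in sEV livers, against 6.78, 7.0 and 6.83 in control livers (-0.01 ± 0.09). A dim Rps12 probe on AK132208 differed by 0.87 ± 0.38 with an adjusted p of 0.176 and was well above background on 4 arrays.

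**Figure D3:**
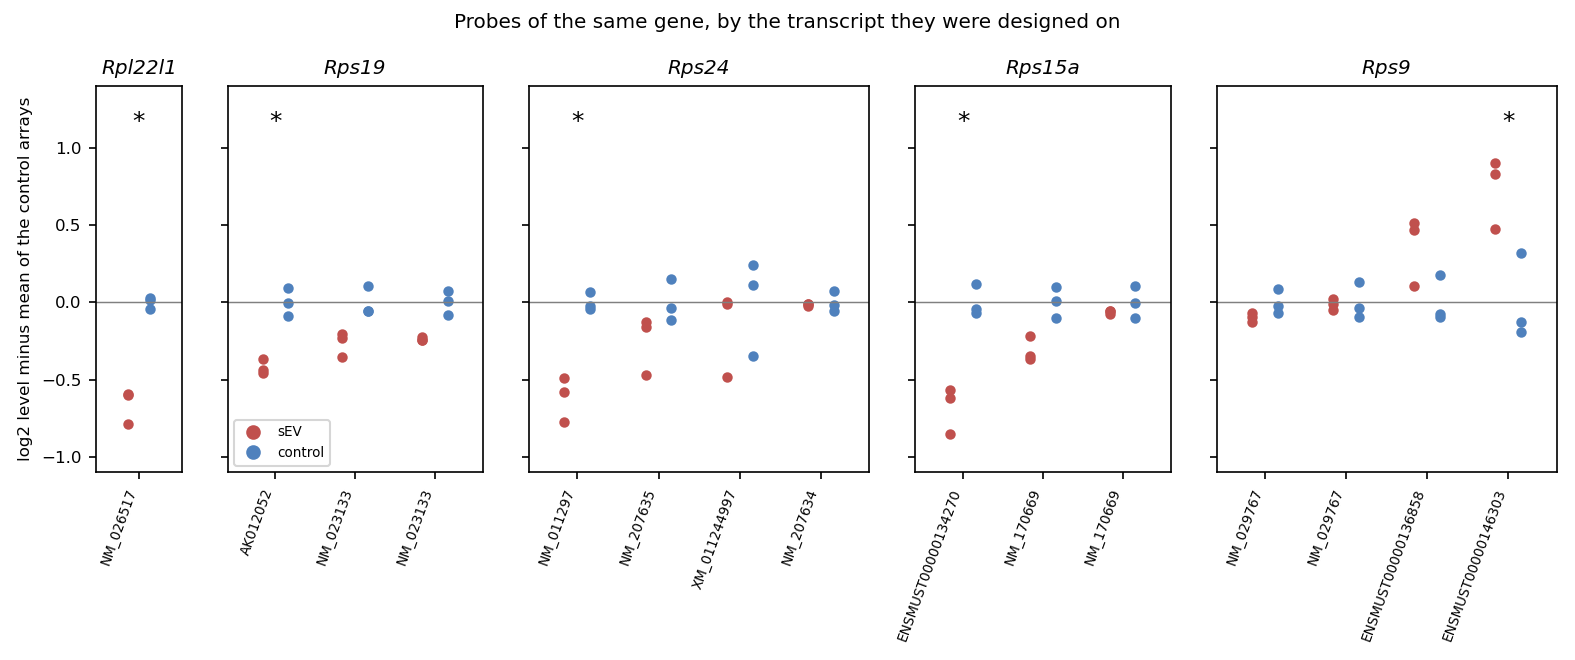
Log2 level minus the mean of the control arrays (vertical axis) for each probe of 5 genes, with sEV livers in red left of control livers in blue, and 1 point per liver. A star marks an adjusted p under 0.05. Within Rps24 and Rps15a the points of 1 probe lie near -0.6 while those of another lie near 0, and the starred Rps9 probe, near the background, is higher in sEV livers.

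The size of the shift, and with it the number of calls, depended on how arrays were put on one scale. That percentile of the processed signal, the main scaling factor, was 424, 401.5 and 411.9 in sEV livers, against 506.4, 440.1 and 492 in control livers. With no scaling 54 members passed as lower, beside 21.7% of all genes, and the medians were -0.319 for the large subunit, -0.292 for the small and -0.193 over all genes. Quantile normalization and the authors' deposited value table each gave 22 lower members (13 large, 9 small), and the other settings gave 0 to 6. The 22 were the same genes in both, and included Rpl22l1, Rps24, Rps19, Rpl39, Rpl11, Rps27a, Rps27l and Rpl37rt. With each array scaled to the members' own median, 36 of 82 members were negative, the median over all genes was 0.122 and Rpl22l1 was the 1 call. That scaling sets the members' median to 0 on each array, so their near-even signs are largely built in. Rps2 turned to -0.10 without scaling. No setting gave a member as higher except the choice of the dimmest probe per gene, which gave Rps9 through its near-background probe.

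**Figure D4:**
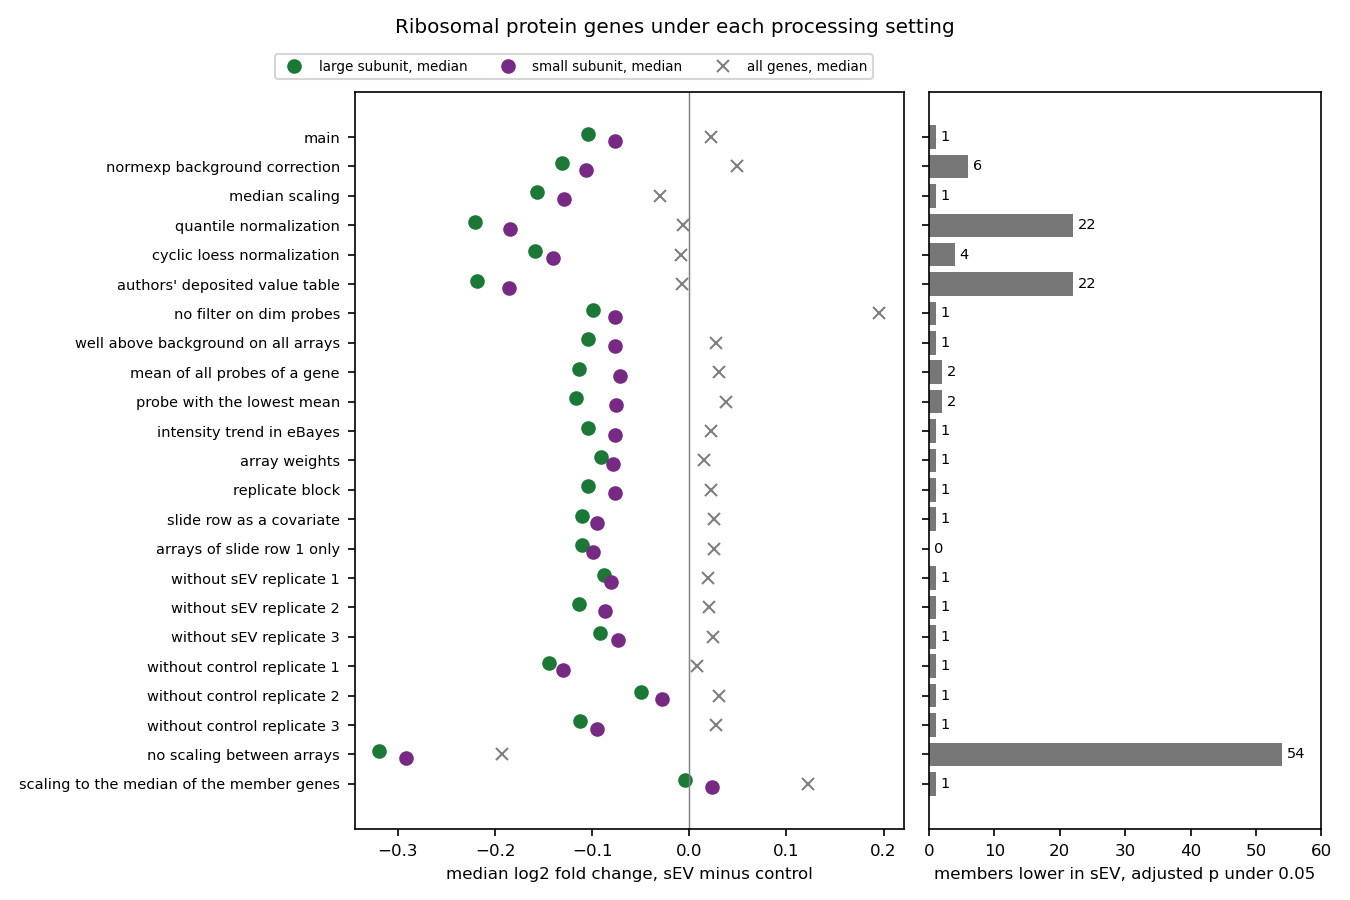
Left, median log2 fold change (sEV minus control) of large subunit, small subunit and all genes under each processing setting. Right, number of members lower in sEV livers at an adjusted p under 0.05, which is 1 in the main setting, 22 under quantile normalization and in the deposited table, and 54 without scaling.

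Related genes were counted from lists. Of 4 ribosomal protein genes outside the name rule, 0 passed, with Gnb2l1 (the scaffold RACK1) at -0.13 ± 0.08 and Fau at 0.10 ± 0.08. Of 20 other genes with TOP messages, mostly translation factors, 1 fell and 0 rose. It was Hnrnpa1, an RNA-binding protein and no translation factor, at 1.17, 1.30 and 1.21 in sEV livers, against 2.18, 2.19 and 1.85 in control livers (-0.85 ± 0.12, adjusted p = 0.00843). The median of this list was -0.0853, beside -0.0907 over all tested members. Of 77 mitochondrial ribosomal protein genes, 2 fell and 0 rose, with a median of -0.0762. They were Mrpl1 (-0.44 ± 0.10, adjusted p = 0.03) and Mrpl35 (-0.45 ± 0.12, adjusted p = 0.0465), both of the large mitochondrial subunit.

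Of 52 genes of ribosome assembly and RNA polymerase I, 3 rose and 0 fell, with a median of 0.154. After subtracting each gene's mean, their array medians were -0.0549, 0.302 and 0.0169 in sEV livers, against -0.151, -0.0591 and -0.00515 in control livers. The groups overlapped, and sEV 2 stood above all other arrays. Rrs1, which brings the 5S particle to the growing large subunit, was at 0.40, 0.58 and 0.48 in sEV livers, against 0.06, 0.06 and 0.02 in control livers (0.44 ± 0.08, adjusted p = 0.0208). Utp15, of the small subunit processome, and Nob1, the endonuclease that finishes 18S ribosomal RNA, also rose (0.64 ± 0.11 and 0.38 ± 0.09). Of 32 genes of mTOR and S6 kinase control, 2 rose and 3 fell. Eif4ebp3, a repressor of the cap-binding factor eIF4E, was at 3.76, 3.83 and 4.39 in sEV livers, against 1.74, 2.29 and 2.11 in control livers (1.95 ± 0.22, adjusted p = 0.00459). Ddit4l, an inhibitor of mTORC1, was well above background on all 3 control arrays and on 0 sEV arrays, so that only a bound can be given. It was at least 3.86-fold lower in sEV livers. That bound sets the control mean against, on each sEV array, the higher of its own level and the lowest level well above background. Ddit4l entered the fit through the control arrays alone and is counted among the 3 that fell. Mnt, a Myc antagonist, rose (0.80 ± 0.15) and Sesn1, a p53 target upstream of mTORC1, fell (-0.39 ± 0.09). The share of all genes that passed, 16.9%, is the background for these counts.

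Markers of some cell types in the liver differed between the groups. The counts below stand beside 16.9% of all genes that passed in either direction. Of 25 genes of dividing cells, 25 fell, and their summed level on the linear scale, in units of the array's 75th percentile, was 12.9 to 15.1 in sEV livers, against 63.2 to 81.4 in control livers. For 6 of these genes (Aurkb, Bub1, Bub1b, Ccnb1, Tpx2 and Ttk) 0 sEV arrays were well above background. These 6 entered the fit through the control arrays alone, so their calls add no separate support to the count of 25. Of 15 granulocyte genes 7 rose, with sums of 363.3 to 564 in sEV livers, against 154.6 to 160.1 in control livers. Most of that gap was Lcn2, which hepatocytes are also known to make: without it the sums were 150 to 160 in sEV livers, against 102.7 to 126 in control livers. Of 12 Kupffer cell and macrophage genes 6 rose, with sums of 151.8 to 165.4 in sEV livers, against 103.8 to 138.9 in control livers. The sums of these 3 lists did not overlap between the groups. Of single genes, 18.6% lay wholly lower and 22.2% wholly higher in sEV livers, and no such share was computed for sums. Of 13 erythroid genes 4 fell and 1 rose (Hemgn), 11 were negative and the median was -0.682, while the sums, which are mostly Hba-a1 and Hemgn, overlapped at 494.4 to 1067 in sEV livers, against 836 to 989.9 in control livers. Without Hemgn they were 225.4 to 765 in sEV livers, against 729.9 to 808.7 in control livers. These sums without Lcn2 or Hemgn were added after seeing the data. Of 7 stellate cell genes 4 fell, with sums of 52.3 to 73.7 in sEV livers, against 72.4 to 104.2 in control livers. Of 10 hepatocyte genes 2 rose (Cps1 and Hnf4a), and all 10 were measured, with sums of 4494 to 5404 in sEV livers, against 4177 to 4636 in control livers. The erythroid, stellate and hepatocyte sums overlapped between the groups. Of 6 B cell genes 3 fell and 1 rose, of 7 sinusoidal endothelial genes 1 fell, and of 4 cholangiocyte genes 0 passed. Ms4a1, among the 3 B cell genes that fell, was well above background on 0 sEV arrays and entered the fit through the control arrays alone. Of the markers on the array, 4 erythroid, 1 granulocyte and 1 B cell gene were too dim to be tested. The part of these cells in the ribosomal protein values was not tested.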

How the data were processed

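Liver RNA was measured on 6 one-colour Agilent arrays of 62976 spots, 3 per group, with groups taken from the treatment labels. The submitters' processing notes name Agilent Feature Extraction 10.7.1.1 as the scanner software. The deposited processed signal is an intensity that, per the file headers, had background subtracted and spatial trends removed, with no scaling between arrays. Spot means and local background, deposited as intensity too, served the normexp alternative. The value table that the authors deposited holds log2 values, has equal medians on all arrays, and correlated with the scanner values at 0.9995 or more. How that was done is not given in the sources here. Its fit called 3496 genes and quantile normalization 3495, so these settings do not count as independent of each other.

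Control spots and outlier spots (91 to 171 per array) were left out. Log2 signals were centred on each array's 75th percentile and spots of a probe averaged. Probes that stood well above background on 3 or more arrays entered the fit, 1 for each gene name (that of highest mean level), which gave 19446 genes. The sEV and control livers were tested against each other by limma (version 3.58.1, R 4.3.3; lmFit, eBayes) with p-values adjusted by Benjamini-Hochberg over the whole table and called under 0.05, and the fit was checked on simulated data. Errors (±) of log2 fold changes are standard errors with 3 livers per group, and the number of arrays limits the precision. An exact permutation test of 3 against 3 cannot go below p = 0.1.

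Members and gene lists were chosen with earlier results of these data known. The genes named are the 5 highest and 5 lowest of each subunit, all paralogues, role members fixed by name, members past the threshold, members whose probes differ in sign with 1 past it, and up to 4 per other list. A small subunit gene that the rule names is counted but not reported here by name or plotted among the ranked genes. The arrays came from 1 slide and 1 scan. All controls and sEV 1 lay in slide row 1, and sEV 2 and 3 in row 2. Same-numbered arrays of the 2 groups had deviations that correlated at 0.0545, 0.164 and 0.00318, and the numbers were therefore not used to pair arrays. Probe coordinates and names come from the array design (mm9), and promoters are from RefSeq (GRCm38.p6). Plots were made by matplotlib 3.10.9 in Python 3.11.15.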

Additional observations from a re-analysis of the deposited data

How the results depend on the processing

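Under the alternatives, 671 values of named members kept their direction and their side of the threshold or stayed within the spread, 76 moved, 41 became called, 1 lost its call and 3 reversed. Rps12 reversed to 0.34 with the mean of its probes and to 0.87 with its dimmest probe, and Rps2 to -0.10 with no scaling. Rpl22l1 was negative throughout (-0.88 to -0.56, adjusted p from 0.00133 to 0.0538), and lost its call only in slide row 1 alone, which sets 1 sEV array against 3 controls. With slide row as a covariate it kept the call (adjusted p = 0.0295).

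The count of members lower, 1 in the main setting, was 6 with normexp, 22 with quantile normalization and in the authors' deposited value table, 4 with cyclic loess, 2 with the mean of probes and with the dimmest probe, 0 in slide row 1 alone, 54 with no scaling and 0 over canonical genes alone. Of all genes, 8.11% were lower in the main setting, 9.02% with normexp, 9.48% with quantile normalization and 9.5% in the deposited table. That share was 9.46% with cyclic loess, 7.18% with the mean of probes, 5.96% with the dimmest probe and 21.7% with no scaling. The count of members higher was 1 with the dimmest probe. The large and small medians were -0.221 and -0.185 with quantile normalization, -0.219 and -0.186 in the deposited table, -0.319 and -0.292 with no scaling, and -0.00465 and 0.023 with scaling to the members' median. With that last scaling they lie near 0 by construction. Their difference was -0.0433 with the mean of probes, -0.0412 with the dimmest probe, -0.0122 with array weights and -0.0115 in slide row 1. Leaving out each array in turn gave differences of -0.0269 to -0.00737 (nearest 0 without sEV 1), large medians of -0.145 to -0.0495 and small medians of -0.13 to -0.0286, both nearest 0 without control 2 and farthest without control 1.

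All genes called numbered 3293, against 801 with no filter on dim probes, 721 with slide row as a covariate, 609 in slide row 1, 4948 with no scaling, 686 at an adjusted p of 0.01 and 1330 (without control 1) to 2767 (without sEV 1) with an array left out. With the replicate block, by the sample numbers, 2176 genes and 1 member (Rpl22l1) were called. The cause of these differences was not tested, except that some alternatives use fewer arrays. All 82 tested members were well above background on all 6 arrays. The choices of no scaling and of scaling to the members' median were made after seeing the data.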
